A study of Homo sapiens with 8 samples.

Results

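The HOX cluster genes encode transcription factors with a homeodomain, a DNA-binding fold, and lie in 4 clusters named A to D. They were taken by their symbols, that is every gene named HOX with a cluster letter and a number. The rule used no measured value, but it was chosen with earlier results of these data known. A total of 39 of the 60282 genes listed met the rule, 11 in HOXA on chromosome 7, 10 in HOXB on chromosome 17, 9 in HOXC on chromosome 12 and 9 in HOXD on chromosome 2. Antisense and other noncoding genes of the clusters carry longer names and were kept as a separate list.

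All 8 libraries came from SK-UT-1, a human line established from a uterine leiomyosarcoma, a malignant tumor of the smooth muscle of the uterus. The vehicle group (n = 4) received DMSO and the TP-472 group (n = 4) received 5 µM TP-472, described in the labels as an inhibitor of BRD9/7, and both were harvested after 48 h. BRD9 is a bromodomain protein of a chromatin remodeling complex. The comparison asks which transcripts differ between cells given TP-472 and cells given DMSO, and it does not separate BRD9 from BRD7. The study's methods speak of biological replicates for its experiments in general, but the labels do not tie these libraries to separate cultures. The p-values therefore measure the spread between these libraries, which may be partly technical, and a single cell line stands for the tumor.

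Within a cluster the HOX genes follow one another along the chromosome in the order in which they are switched on along the body axis, and each gene has paralogues at the same rank, which carry the same number, in the other clusters. Low numbers act in the hindbrain and neck, and high numbers in the lower trunk, limbs and genital tract. In the female tract HOXA9, HOXA10, HOXA11 and HOXA13 pattern the oviduct, uterus, cervix and vagina, and HOXA10 and HOXA11 stay active in the adult endometrium. HOX proteins bind DNA together with cofactors of the TALE class, the PBX, MEIS and PKNOX proteins, and the clusters are kept silent by Polycomb proteins and active by Trithorax proteins.

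HOX clusters are known for CpG-rich DNA. The 250 bases before the start are shown for 3 members that the results below turn on. The sequences are from RefSeq on GRCh38.p14, whose promoter table matched 20 of the 39 genes, of the HOXB cluster only HOXB1. They are written in the direction of transcription with CpG in capitals. HOXA11 has 11 CpG (chr7:27185233-27185482, minus strand), HOXC4 has 14 (chr12:54016638-54016887, plus strand) and HOXD10 has 23 (chr2:176116528-176116777, plus strand).
HOXA11: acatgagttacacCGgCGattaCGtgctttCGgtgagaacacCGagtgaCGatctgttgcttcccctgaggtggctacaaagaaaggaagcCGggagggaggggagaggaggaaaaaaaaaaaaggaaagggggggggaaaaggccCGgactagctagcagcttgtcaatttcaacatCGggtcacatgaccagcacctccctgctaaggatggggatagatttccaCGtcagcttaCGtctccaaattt
HOXC4: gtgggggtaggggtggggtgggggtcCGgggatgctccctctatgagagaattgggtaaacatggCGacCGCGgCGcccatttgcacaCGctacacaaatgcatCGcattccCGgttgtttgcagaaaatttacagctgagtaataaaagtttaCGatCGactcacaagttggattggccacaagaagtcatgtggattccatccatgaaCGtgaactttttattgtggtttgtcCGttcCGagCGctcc
HOXD10: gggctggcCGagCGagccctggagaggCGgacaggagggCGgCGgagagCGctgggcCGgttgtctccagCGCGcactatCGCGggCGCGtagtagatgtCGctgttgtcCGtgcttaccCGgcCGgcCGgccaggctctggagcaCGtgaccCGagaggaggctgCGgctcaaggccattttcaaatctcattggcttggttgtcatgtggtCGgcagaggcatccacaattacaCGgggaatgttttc
The table gives HOXC4 and HOXC5 the same window. Over the full windows of 300 bases, with 50 bases after the start, the 20 HOX promoters held a median of 22.5 CpG, against 14.0 in all 35116 promoters of the table. Of the 3 genes shown, HOXD10 (23) lay above that last value, HOXA11 (13) below it and HOXC4 (15) close to it. The ratio of observed to expected CpG had a median of 0.869 in the HOX promoters and 0.579 in all, while the median GC content was 58.0% and 58.7%. The letters TATAAA occurred on either strand in 4 of 20 windows (20%, HOXA3, HOXA9, HOXA10 and HOXD13), against 11.5% of all windows, and TGATTNAT, the letters of a joint PBX and HOX site, in 2 of 20 (10.0%, HOXA2 and HOXD11), against 2.82%.

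The cells carried smooth muscle transcripts, though not all of them. Of 12 smooth muscle markers, 9 passed the filter used for testing, which asks that 4 or more libraries exceed 1 CPM. CPM are counts corrected for library size. The filter used total counts for this, while the CPM printed here also use edgeR's TMM factors. TPM2 stood at 448 ± 147 CPM in vehicle (mean ± SD, n = 4), CALD1 at 200 ± 15.3 and ACTA2 at 160 ± 16.7, whereas MYH11, MYOCD and ACTG2, which define mature smooth muscle, were at 0.00703, 0.0418 and 0.0214 CPM. The summed smooth muscle markers were at 863, 920, 1360 and 924 CPM in vehicle and between 722 and 787 CPM with TP-472, with a median log2 fold change of -0.67. DES, TAGLN and LMOD1 were called lower, 3 of the 9 tested, where 14.9% of all genes were. DES and LMOD1 passed the filter through the vehicle libraries alone. Without vehicle replicate 3, the high one, the median was -0.41, and ACTA2 was also called lower (-0.59, adjusted p = 1.38e-04).

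Markers of other cells differed in level. None of 4 endothelial markers was tested, the most abundant was VWF, and they summed to at most 0.581 CPM in any library. Of 5 leukocyte markers CD68 alone was tested, at 7.53 CPM in vehicle and 10.4 CPM with TP-472 (0.47, and 0.48 without vehicle replicate 3), while CD3E and MS4A1, markers of T and B cells, had no count in any library. Of 4 markers of endometrial stroma and steroid response WT1 alone was tested (6.21 and 9.25 CPM), and the receptor genes ESR1 and PGR were at 0.00719 and 0 CPM in vehicle. WT1 was under the fold limit with all libraries (0.57, adjusted p = 0.0296) and was called higher without vehicle replicate 3 (0.68, adjusted p = 0.00289), without TP-472 replicate 2 (0.66, adjusted p = 0.0358) and with the GC correction (0.68, adjusted p = 0.00288).

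Of 7 epithelial markers 3 were tested, and their list summed to between 18.4 and 24.3 CPM in vehicle and between 21.8 and 28.3 CPM with TP-472. KRT18 was called higher and KRT19 lower, with and without vehicle replicate 3, and the median was 0.52, and 0.56 without that library. Of 6 fibroblast markers 4 were tested, and the list summed to between 557 and 761 CPM in vehicle and between 144 and 156 CPM with TP-472, with a median of -1.07, and of -0.72 without vehicle replicate 3. COL1A2, the most abundant, fell from 589 ± 77.3 to 98.8 ± 4.83 CPM, and COL1A1 was called lower too (-2.35, and -1.46 without vehicle replicate 3), a call lost without any 1 of the TP-472 replicates (adjusted p = 0.0531, 0.0624, 0.0676 and 0.0538). The part of these marker changes in the HOX results was not tested.

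Vehicle replicate 3 stood apart from the other libraries. Its Spearman correlation with its own group was 0.914, against 0.988 to 0.997 in the other 7 libraries. Its deviation from the mean of all libraries rose by 0.66 on the log2 scale for every 10 percentage points of GC content, whereas the slopes of the others lay between -0.18 and -0.03. Total counts were similar, from 32574716 to 36634184 per vehicle library and from 36246466 to 38545695 per TP-472 library.

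HOX genes are GC-rich, with a median of 54.2% in the exons of those tested against 48.2% over all genes tested, and 19 of 21 lay above that median. Vehicle replicate 3 was the highest vehicle library for 16 of the 21 HOX genes tested, against 43.2% of all genes tested. Its level was a median of 1.53 times the mean of the other vehicle libraries for HOX genes and 0.993 times for all genes. For this reason values without vehicle replicate 3 are given beside the results for the tested HOX genes and the medians of the other lists.

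**Figure D1:**
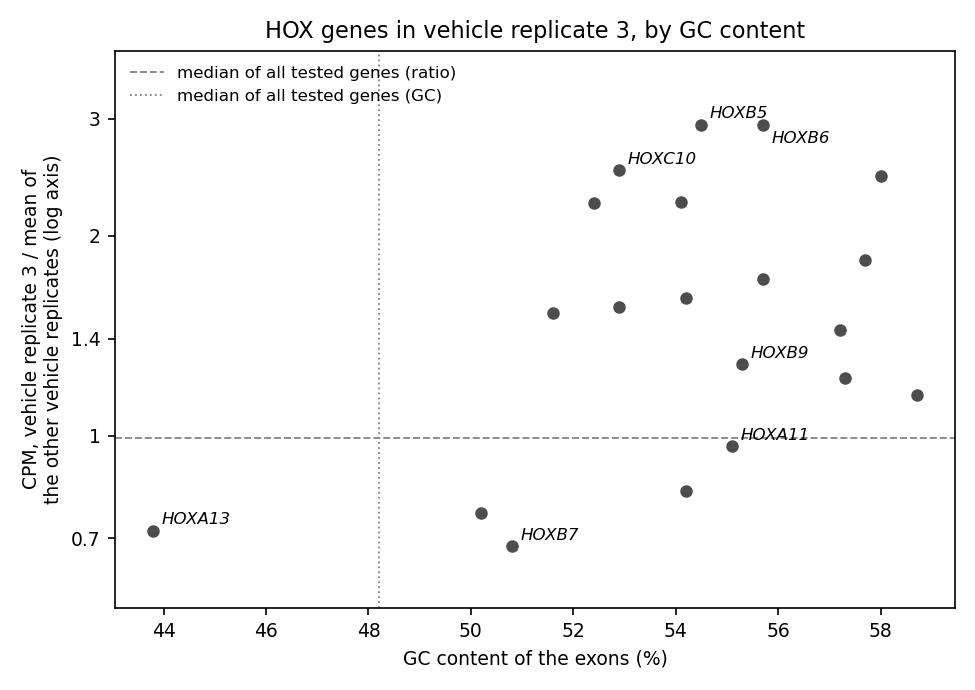
Level of 20 tested HOX genes in vehicle replicate 3 divided by the mean of vehicle replicates 1, 2 and 4 (vertical log axis) against the GC content of each gene's exons in percent (horizontal axis). Dashed and dotted lines mark the medians of all tested genes, 0.993 for the ratio and 48.2% for GC. Most HOX genes sit above the dashed line, with HOXB5 and HOXB6 at 2.94, whereas HOXB7 sits below it at 0.681 and HOXA11 near it at 0.965.

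All 39 HOX genes had at least 1 count, and 21 passed the filter, 9 of 10 in HOXB, 5 of 11 in HOXA, 5 of 9 in HOXC and 2 of 9 in HOXD. HOXB dominated in both groups. It held 74.6% of the summed HOX CPM in vehicle and 76.6% with TP-472, HOXC held 15.9% and 12.4%, HOXA 6.55% and 8.2%, and HOXD 3.07% and 2.97%. These shares are not corrected for gene length, and those of vehicle include replicate 3. Without that library HOXA, HOXB, HOXC and HOXD summed to 10.8, 114, 22.2 and 5.24 CPM in vehicle. With TP-472 the sums were 13.7, 128, 20.7 and 4.96 CPM. The summed HOX level in vehicle replicates 1 to 4 was 158, 146, 250 and 153 CPM, and in TP-472 replicates 1 to 4 it was 165, 164, 164 and 176 CPM. Thus vehicle replicate 3 alone lay far above the rest, and without it the vehicle mean was 153 ± 6.07 CPM (SD, n = 3), against 167 ± 5.64 CPM with TP-472 (n = 4).

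Per kilobase of exon, the scale on which genes can be compared, the highest vehicle levels were those of HOXB6 at 7.35, HOXB7 at 6.89, HOXB9 at 5.13, HOXB3 at 5.06, HOXB13 at 4.98 and HOXB2 at 4.22 CPM per kb. Without vehicle replicate 3, HOXB7 came first in vehicle too, at 7.49, followed by HOXB6 at 4.95, HOXB9 at 4.8, HOXB13 at 4.71, HOXB3 at 4.47 and HOXB2 at 3.8 CPM per kb. With TP-472 the levels were 10.6 for HOXB7, 9.28 for HOXB9, 5.67 for HOXB6 and 4.87 CPM per kb for HOXB2. With the length of the longest transcript in place of all exons, HOXB3 rose to 8.97 and HOXB2 to 6.31 CPM per kb in vehicle, so the order among these depends on the length used.

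**Figure D2:**
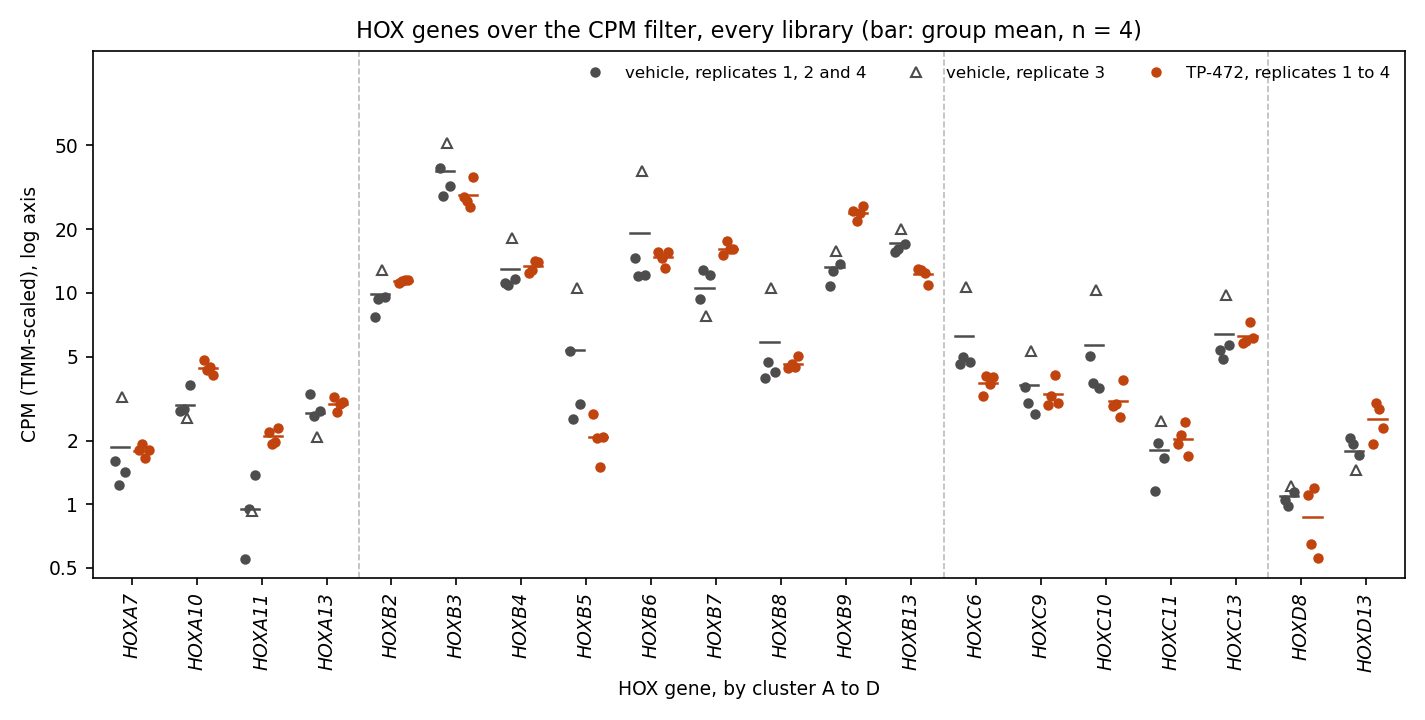
TMM-scaled CPM (vertical log axis) of 20 HOX genes that passed the filter, in each of the 8 libraries, with clusters A to D separated by dashed lines. Points are libraries, the open triangle is vehicle replicate 3 and bars are group means (n = 4). HOXA10, HOXA11, HOXB7 and HOXB9 lie higher in all TP-472 libraries than in any vehicle library, and HOXB13 and HOXC6 lie lower.

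TP-472 moved few HOX genes past the thresholds, and in both directions. Genes were called at an adjusted p under 0.05 in edgeR's quasi-likelihood test and a fold change over 1.5. HOXA11, HOXB7 and HOXB9 were called higher and HOXB5 lower, 4 of the 21 tested (19.0%). Over all 14073 genes tested 26.9% were called, 12.0% higher and 14.9% lower, so the HOX share was not above the background. In bulk RNA a change in the number of cells that carry a transcript and a change in transcript per cell cannot be told apart. The 21 HOX genes had a median log2 fold change of -0.03 and all genes tested also of -0.03, with 10 HOX genes above 0 and 11 below.

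Without vehicle replicate 3, 3 HOX genes were called, HOXA11, HOXB9 and HOXB5, where 25.5% of all genes were. The HOX median then rose to 0.24, with 15 of 21 above 0, while that of all genes was -2.14e-05. HOXB7 kept its direction at 0.50 (adjusted p = 0.00471) but came under the fold limit. At an adjusted p under 0.05 with no fold limit, 6 HOX genes passed with all libraries, where 36.3% of all genes did, and 9 passed without vehicle replicate 3, where 57.0% did. The values of both groups did not overlap for 6 of 21 HOX genes, 4 higher (HOXA10, HOXA11, HOXB7, HOXB9) and 2 lower (HOXB13, HOXC6), against 45.4% of all genes.

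Other settings moved the number of HOX genes called in both directions. At a filter of 5 CPM only 8 HOX genes were tested, HOXA11 and HOXB5 not among them, and 2 were called, against 24.1% of all genes. In limma-voom 4 of 21 were called, against 26.0%. With each library left out in turn from 2 to 6 of 21 were called, against 19.1% to 30% of all genes. With a correction for the GC trend of each library 7 of 21 were called, against 28.2% of all genes. HOXA10, HOXC6 and HOXC10 joined. DESeq2 called 9 HOX genes, against 24.1% of all genes with an adjusted p, and its calls were HOXA11, HOXB7 and HOXB9 higher and HOXA6, HOXB5, HOXC4, HOXC6, HOXC10 and HOXD10 lower. With no CPM filter 6 of the 39 were called, against 15.3% of all genes, as HOXC4 and HOXD10 then entered.

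**Figure D3:**
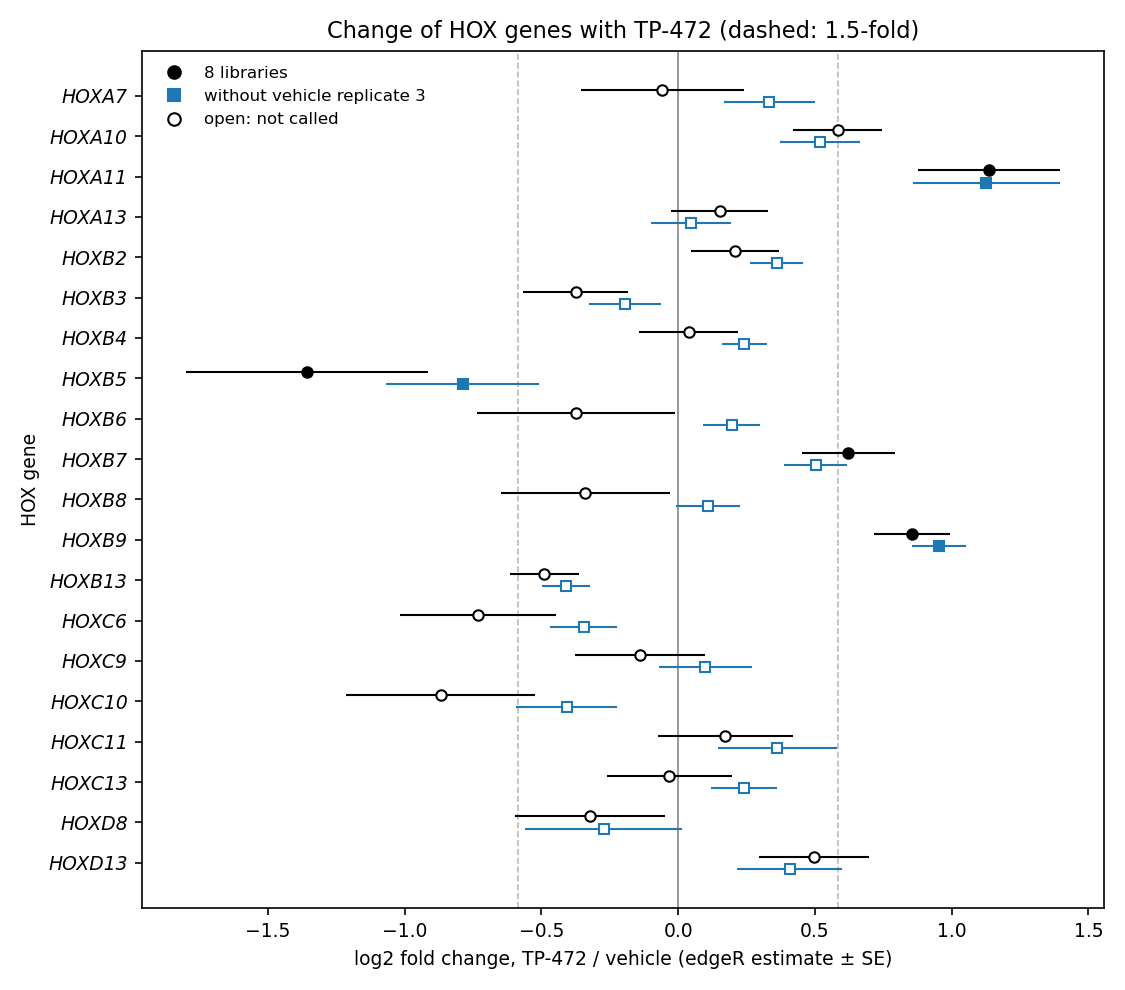
log2 fold change of TP-472 over vehicle (horizontal axis, edgeR estimate ± SE) for 20 tested HOX genes, with all 8 libraries (black circles) and without vehicle replicate 3 (blue squares). Filled symbols were called, and dashed lines mark 1.5-fold. HOXA11 and HOXB9 keep their place in both fits, HOXB5 moves from -1.36 to -0.79, and HOXB6, HOXB8, HOXC9, HOXC13 and HOXA7 cross 0.

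In the HOXA cluster HOXA11 was called higher, and its neighbour HOXA10 passed the p threshold but not the fold limit. HOXA11, which acts in the uterus and is needed for its development, was at 0.554, 0.948, 0.926 and 1.38 CPM in vehicle and at 2.20, 1.92, 1.97 and 2.30 CPM with TP-472. The lowest TP-472 library lay above the highest vehicle library, and the gene passed the filter through the TP-472 libraries, since 1 vehicle library exceeded 1 CPM (with no CPM filter the value was 1.13, adjusted p = 0.0147). The log2 fold change was 1.14 (SE 0.26, adjusted p = 0.0100) and 1.13 without vehicle replicate 3 (adjusted p = 0.00570). The gene lies at chr7:27181510-27185223 on GRCh38.

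HOXA10, also a gene of the uterus, was at 2.77, 2.82, 2.55 and 3.68 CPM in vehicle and at 4.84, 4.31, 4.47 and 4.10 CPM with TP-472. The groups did not overlap either. Its log2 fold change of 0.58 (SE 0.16, adjusted p = 0.0227) was just under the limit of 1.5-fold, and 0.52 without vehicle replicate 3 (adjusted p = 0.0125). Leaving out vehicle replicate 4 or TP-472 replicate 4 took it past the limit, at 0.71 (adjusted p = 0.0141) and 0.62 (adjusted p = 0.0399), and so did the GC correction (0.68, adjusted p = 0.0169) and limma-voom (0.59, adjusted p = 0.0183). It missed the p threshold without TP-472 replicate 1, 2 or 3 (adjusted p = 0.0748, 0.0566 and 0.0624), without vehicle replicate 1 (adjusted p = 0.0566) and with no CPM filter (adjusted p = 0.0725).

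HOXA13 and HOXA7 did not pass. HOXA13, which patterns the cloaca, digits and lower genital tract, was at 3.32, 2.62, 2.08 and 2.75 CPM in vehicle and at 3.21, 2.73, 2.97 and 3.06 CPM with TP-472, a log2 difference of 0.15 (adjusted p = 0.518), and of 0.05 without vehicle replicate 3. HOXA7, a gene of the trunk, was at 1.61, 1.24, 3.21 and 1.43 CPM in vehicle and at 1.81, 1.92, 1.66 and 1.80 CPM with TP-472. Vehicle replicate 3 decided its sign, with -0.06 with all libraries (adjusted p = 0.891) and 0.33 without it (adjusted p = 0.113).

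HOXA9, although it lies beside HOXA10, had only 1 to 7 counts per library. HOXA2, HOXA3, HOXA4, HOXA5 and HOXA6 were also under the filter, with 0 to 57 counts, the 57 being HOXA3 in vehicle replicate 3. HOXA6 had 10, 8, 28 and 13 counts in vehicle and 6, 3, 8 and 3 with TP-472. The HOXA6 groups overlapped in count at 8, but not in CPM (0.421 against 0.135 CPM on average). An exact permutation test of the CPM gave p = 0.0286, the smallest that 4 against 4 libraries allow, and 0.0571 without vehicle replicate 3.

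In the HOXB cluster HOXB9 and HOXB7 were called higher and HOXB5 lower. HOXB9, a gene of the thoracic body axis, was at 10.8, 12.7, 15.8 and 13.7 CPM in vehicle and at 24.3, 22.0, 23.8 and 25.8 CPM with TP-472. No library overlapped, and the difference was far larger than the spread within groups. The log2 fold change was 0.86 (SE 0.14, adjusted p = 0.00217), and 0.95 without vehicle replicate 3 (adjusted p = 4.7e-05). The call held in all 19 alternatives run for this gene, each library left out in turn included.

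HOXB7, next to HOXB8 and HOXB9 and known from breast and other carcinomas, was at 9.34, 12.9, 7.79 and 12.1 CPM in vehicle and at 15.1, 17.6, 16.1 and 16.1 CPM with TP-472. All TP-472 libraries were higher. The log2 fold change was 0.62 (SE 0.17, adjusted p = 0.0215). This call was close to the limits, since it was lost without TP-472 replicate 2 (0.58, adjusted p = 0.0663), TP-472 replicate 3 (0.63, adjusted p = 0.0560), vehicle replicate 1 (0.57, adjusted p = 0.0588) or vehicle replicate 3 (under the fold limit, as above).

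HOXB8, which lies between HOXB7 and HOXB9 in the series, did not follow them. It was at 3.96, 4.71, 10.6 and 4.22 CPM in vehicle and at 4.43, 4.62, 4.47 and 5.02 CPM with TP-472. Apart from vehicle replicate 3 the groups were alike in range, and the log2 difference was -0.34 (adjusted p = 0.406) with that library and 0.11 (adjusted p = 0.454) without it.

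HOXB5 had the largest fall among the tested HOX genes, and it leaned on vehicle replicate 3. It was at 5.29, 2.53, 10.6 and 2.98 CPM in vehicle and at 2.69, 2.06, 1.5 and 2.09 CPM with TP-472. Vehicle replicate 2 lay below TP-472 replicate 1, so the groups overlapped. The log2 fold change was -1.36 (SE 0.44, adjusted p = 0.0399), and -0.79 without vehicle replicate 3 (adjusted p = 0.0361). The call was lost without any 1 of the TP-472 replicates (adjusted p = 0.0632, 0.0932, 0.107 and 0.0884 without replicates 1 to 4) and without vehicle replicate 1 (adjusted p = 0.0778).

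HOXB6, a gene of the trunk, was at 14.6, 12.0, 37.9 and 12.1 CPM in vehicle and at 15.6, 14.7, 13.1 and 15.7 CPM with TP-472. Only vehicle replicate 3 was high. Its log2 difference went from -0.37 (adjusted p = 0.432) to 0.20 (adjusted p = 0.134) without that library. HOXB4, a gene of blood stem cells, was at 11.2, 10.9, 18.2 and 11.7 CPM in vehicle and at 12.5, 12.9, 14.1 and 14.0 CPM with TP-472. With all libraries the difference was 0.04 (adjusted p = 0.882), and without vehicle replicate 3 the groups no longer overlapped (0.24, adjusted p = 0.0297), still under the fold limit.

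HOXB3, with the highest CPM of any HOX gene, was at 39, 28.9, 51.0 and 32.1 CPM in vehicle and at 28.5, 27.1, 25.4 and 35.5 CPM with TP-472 (-0.37, adjusted p = 0.152, and -0.19 without vehicle replicate 3). The groups overlapped with and without vehicle replicate 3. HOXB2, its hindbrain neighbour, was at 7.68, 9.34, 12.8 and 9.58 CPM in vehicle and at 11.1, 11.4, 11.5 and 11.5 CPM with TP-472. The difference was 0.21 (adjusted p = 0.327), and 0.36 (adjusted p = 0.0104) without vehicle replicate 3. HOXB3 shares 433 exon bases with HOXB6 and 159 with HOXB4 on the same strand, so part of their counts rests on how the reads were divided.

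HOXB13, the most posterior gene of the cluster and best known from the prostate, stands well apart from HOXB9 on the chromosome and moved the other way. It was at 15.7, 16.2, 20 and 17.1 CPM in vehicle and at 13.0, 12.8, 12.4 and 10.9 CPM with TP-472. All TP-472 libraries were lower. The log2 fold change of -0.49 (SE 0.13, adjusted p = 0.0164) was under the fold limit, as was that of -0.41 without vehicle replicate 3 (adjusted p = 0.00296). With the GC correction it was -0.27 and missed the p threshold (adjusted p = 0.0662), as it did without TP-472 replicate 3 (adjusted p = 0.0502). HOXB1 had no count in vehicle and 1 or 2 counts in each TP-472 library, both under the floor of 3 counts per library, so no fold is given.

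A ratio of genes within a library does not depend on library scaling. That of HOXB9 to HOXB5 was 2.03, 5.01, 1.49 and 4.6 in vehicle and 9.01, 10.7, 15.9 and 12.4 with TP-472. The mean log2 ratio was higher by 2.02, and by 1.7 without vehicle replicate 3. This ratio was chosen after the values of both genes were seen, so no test of it is given.

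In the HOXC cluster no tested gene was called, and the clearest fall was in HOXC4, a gene of the neck and upper trunk that did not pass the filter. HOXC4 had 53.4, 29.1, 96.0 and 30.5 estimated counts in vehicle and 7.44, 1, 4.16 and 3.30 with TP-472. The highest TP-472 library lay below the lowest vehicle library, and the means were 1.48 and 0.0999 CPM. With no CPM filter the log2 fold change was -3.81 (SE 0.52, adjusted p = 2.01e-04 over 33192 genes), and -3.36 without vehicle replicate 3 (adjusted p = 4.19e-07). It was called with each of the 8 libraries left out in turn, with values from -4.26 to -3.36. The exact permutation p of the CPM was 0.0286, with and without vehicle replicate 3.

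HOXC4 and HOXC6 have 484 exon bases in common, and the counts are estimates in which shared reads are divided between transcripts. HOXC5 lies within the span of HOXC4. Therefore the 3 genes were also examined together. HOXC5 had 55.6, 19.4, 72.9 and 24.5 counts in vehicle and 35.7, 28.8, 21.7 and 22.5 with TP-472, with overlap (exact permutation p = 0.343). HOXC6 was at 4.6, 5, 10.7 and 4.69 CPM in vehicle and at 3.26, 4.03, 3.72 and 3.99 CPM with TP-472. The HOXC6 groups did not overlap, yet the log2 difference of -0.73 (SE 0.29) missed the threshold (adjusted p = 0.0716), and without vehicle replicate 3 it was -0.35 (adjusted p = 0.0364), under the fold limit.

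HOXC4 took 16.0% ± 3.09 of the counts of the 3 genes in vehicle and 2.36% ± 1.60 with TP-472 (SD, n = 4). This share was chosen after the counts were seen, so no test of it is given. Summed, the 3 genes went from 7.62, 6.38, 15.5 and 6.21 CPM to 4.37, 4.88, 4.44 and 4.65 CPM. The sum was called lower with all libraries (-0.96, SE 0.29, adjusted p = 0.0314), and without vehicle replicate 3 it was -0.56 (adjusted p = 0.00253), under the fold limit. The fall of HOXC4 was thus larger than that of the sum, while whether HOXC4 lost transcripts or its reads were assigned to another gene was not tested.

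**Figure D4:**
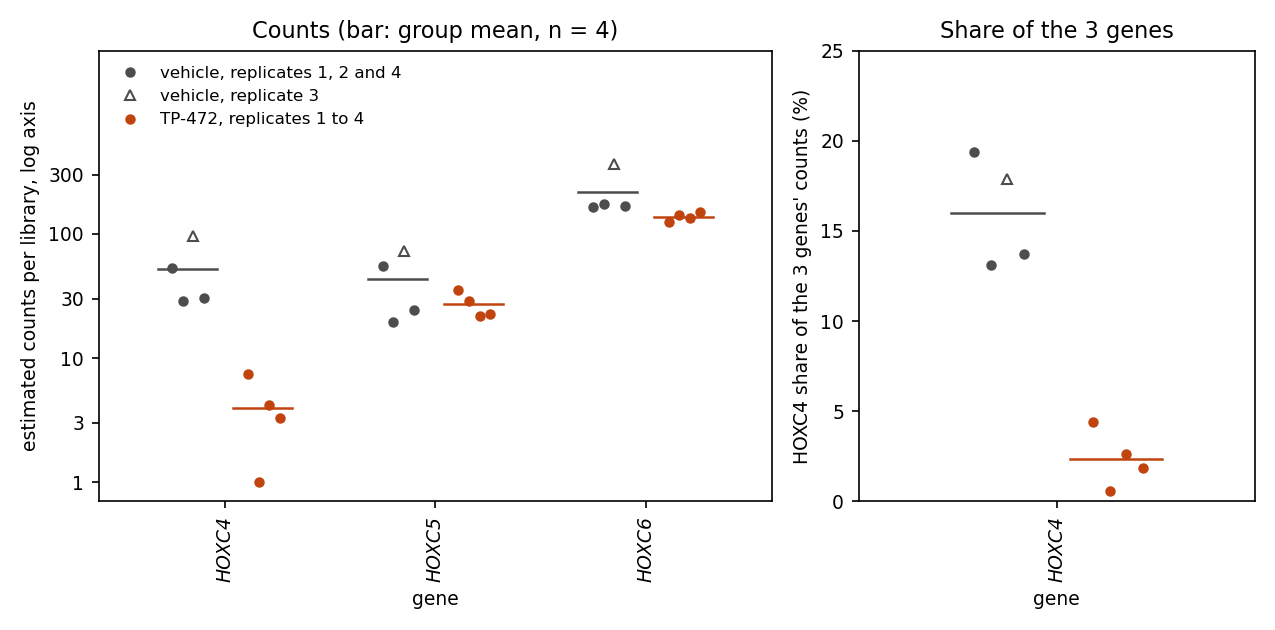
Estimated counts per library of HOXC4, HOXC5 and HOXC6 (left, log axis) and the percentage of the summed counts of these 3 genes assigned to HOXC4 (right), with points for libraries, an open triangle for vehicle replicate 3 and bars for group means (n = 4). HOXC4 lies between 29.1 and 96.0 counts in vehicle and at or under 7.44 with TP-472, whereas HOXC5 overlaps between the groups.

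HOXC10, a gene of the hindlimb and lumbar region, was at 5.04, 3.74, 10.3 and 3.54 CPM in vehicle and at 2.92, 2.99, 2.58 and 3.88 CPM with TP-472. The groups overlapped, and the difference of -0.87 (SE 0.35, adjusted p = 0.0764) was -0.41 without vehicle replicate 3 (adjusted p = 0.0851). It passed only without vehicle replicate 2 (-1.02, adjusted p = 0.0494) or 4 (-1.04, adjusted p = 0.0456) and in DESeq2 and the GC correction.

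HOXC9, a gene of the thoracic region, was at 3.60, 3.02, 5.33 and 2.67 CPM in vehicle and at 2.95, 3.24, 4.08 and 3.01 CPM with TP-472 (-0.14, adjusted p = 0.667, and 0.10 without vehicle replicate 3). HOXC11 was at 1.16, 1.95, 2.49 and 1.66 CPM in vehicle and at 1.92, 2.14, 2.44 and 1.69 CPM with TP-472 (0.17, adjusted p = 0.601, and 0.36 without vehicle replicate 3). HOXC13, a regulator of hair keratins, was at 5.38, 4.89, 9.76 and 5.68 CPM in vehicle and at 5.77, 5.92, 7.30 and 6.13 CPM with TP-472 (-0.03, adjusted p = 0.921). Without vehicle replicate 3 the HOXC13 groups did not overlap, but the difference of 0.24 did not pass (adjusted p = 0.117). HOXC8 and HOXC12 were under the filter, with 24 to 59 and 6 to 31 counts, and did not differ past the test (exact permutation p = 0.771 and 0.314).

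Most HOXD genes were under the filter, and HOXD13 and HOXD8 were tested. HOXD13, a gene of the digits and lower genital tract, was at 2.05, 1.93, 1.45 and 1.71 CPM in vehicle and at 1.94, 3.02, 2.83 and 2.30 CPM with TP-472 (0.50, SE 0.20, adjusted p = 0.0820, and 0.41 without vehicle replicate 3). HOXD8 was at 1.05, 0.977, 1.22 and 1.15 CPM in vehicle and at 1.11, 0.648, 1.19 and 0.555 CPM with TP-472 (-0.32, adjusted p = 0.371, and -0.27 without vehicle replicate 3). Both genes overlapped between the groups.

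HOXD10, a gene of the lumbar axis and limb, was the HOXD gene with the clearest difference, at very low counts. It had 18.0, 9.80, 14.7 and 12.3 estimated counts in vehicle and 2.08, 4, 1.31 and 7 with TP-472. All TP-472 libraries were lower (exact permutation p = 0.0286, with and without vehicle replicate 3). With no CPM filter the log2 fold change was -2.01 (SE 0.56, adjusted p = 0.0225), and -1.98 without vehicle replicate 3 (adjusted p = 0.0131), and it was called in 5 of the 8 fits with a library left out, with an adjusted p of up to 0.0706.

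HOXD10 shares 452 exon bases with HOXD11, which had 11.0, 15.2, 10.3 and 7.74 counts in vehicle and 11.9, 10, 10.7 and 20 with TP-472 (exact permutation p = 0.571). Summed, both genes differed by -0.63 (adjusted p = 0.112), and by -0.62 without vehicle replicate 3 (adjusted p = 0.116), so the difference of HOXD10 was not seen in the sum past the test. HOXD4 had 7, 9, 17 and 9 counts in vehicle and 5, 6, 4 and 5 with TP-472 (exact permutation p = 0.0286, with and without vehicle replicate 3), and with no CPM filter it was not called (-1.12, adjusted p = 0.149). HOXD1, HOXD3, HOXD9 and HOXD12 had 0 to 29 counts and gave exact permutation p-values of 0.143 or more. In all, 4 of the 17 genes under the filter that could be tested this way, HOXA6, HOXC4, HOXD4 and HOXD10, reached the smallest p that 70 assignments allow, and each was lower with TP-472. These p-values are not adjusted for the number of genes. Of all 10428 genes under the filter with more than 3 counts in a library, 17.4% reached that p in either direction and 5.48% lower.

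By rank along the body axis the counts were small, against 26.9% of all genes called. Of ranks 1 to 3, 3 genes were tested and with all libraries none was called by edgeR's test, and none at an unadjusted p under 0.05 either. Without vehicle replicate 3, HOXB2 passed the p threshold but not the fold limit (0.36, adjusted p = 0.0104). Of ranks 4 to 8, 2 of 8 were called, HOXB7 higher and HOXB5 lower. Of ranks 9 to 13, 2 of 10 were called, HOXA11 and HOXB9, both higher. In the last region 6 of 10 genes were above 0 with all libraries and 8 of 10 without vehicle replicate 3, while HOXB13 and HOXC10 lay below 0 in both. The summed level of ranks 9 to 13 was 58.6 ± 9.83 CPM in vehicle (53.7 ± 1.79 without vehicle replicate 3) and 64.6 ± 1.44 CPM with TP-472.

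The noncoding transcripts of the clusters were mostly under the filter. Of 18 such genes in the table, 2 were tested, and their median was 0.54, and 0.52 without vehicle replicate 3. HOTAIRM1, a long noncoding RNA of the HOXA cluster, was at 2.52, 3.08, 2.14 and 2.78 CPM in vehicle and at 4.94, 4.90, 4.86 and 4.73 CPM with TP-472. The groups were far apart, and the log2 fold change was 0.88 (SE 0.15, adjusted p = 0.00307), and 0.80 without vehicle replicate 3, called in all 18 alternatives. HOXB-AS1 was at 2 ± 0.427 CPM in vehicle and 2.29 ± 0.215 CPM with TP-472 (0.20, adjusted p = 0.457, and 0.25 without vehicle replicate 3).

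HOXA11-AS, the antisense transcript of HOXA11, was at 0.942, 0.920, 1.79 and 0.984 CPM in vehicle and at 0.751, 0.423, 0.472 and 0.634 CPM with TP-472. It moved opposite to HOXA11, and no library overlapped. With no CPM filter its log2 fold change was -1.01 (SE 0.33, adjusted p = 0.0480), a call kept in only 1 of the 8 fits with a library left out, and -0.76 without vehicle replicate 3 (adjusted p = 0.0716). The ratio of HOXA11 to HOXA11-AS in a library was 0.585, 1.03, 0.516 and 1.4 in vehicle and 2.93, 4.53, 4.18 and 3.62 with TP-472. The mean log2 ratio was higher by 2.21, and by 1.99 without vehicle replicate 3. The ratio was chosen after the values were seen, so no test of it is given. These genes share 717 exon bases on opposite strands. The study's methods describe strand-specific libraries, but whether the counting used strand is not given in the sources used here. Whether reads of one gene were counted for the other was not tested.

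HOTAIR, a noncoding RNA of the HOXC cluster known for its link to Polycomb, was low, at 0.869 CPM in vehicle and 0.529 CPM with TP-472, and was not called with no CPM filter (-0.71, adjusted p = 0.202). HOXC13-AS was not called with no CPM filter (1.07, adjusted p = 0.0767), but it was called higher in that fit without vehicle replicate 3 (1.06, adjusted p = 0.0436) and in DESeq2 (1.09, adjusted p = 0.0445). Its ratio to HOXC13 was higher with TP-472 by 1.10 on the log2 scale, which did not pass (exact permutation p = 0.0571), and by 0.91 without vehicle replicate 3 (exact permutation p = 0.0857). HOXB-AS3 had 3, 1, 10 and 3 counts in vehicle and 19, 11, 8 and 6 with TP-472. With no CPM filter it was not called (1.28, adjusted p = 0.192), but it was called higher without vehicle replicate 3 (2.09, adjusted p = 0.0213).

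Most genes of the HOX cofactors were lower in TP-472-treated cells. Of 9 TALE genes, 8 were tested, none was called higher and 6 were called lower, where 12.0% and 14.9% of all genes were. The median log2 fold change was -1.11, and -0.84 without vehicle replicate 3, when 5 were called lower. The summed level was 351, 317, 424 and 315 CPM in vehicle and 164, 163, 162 and 170 CPM with TP-472. The list was chosen with earlier results of these data known.

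MEIS2, which binds DNA with HOX and PBX proteins, was at 84.6, 74.0, 94.1 and 70.7 CPM in vehicle and at 37.2, 34, 36.2 and 35.7 CPM with TP-472 (-1.18, SE 0.12, adjusted p = 2.33e-04, and -1.09 without vehicle replicate 3). MEIS1, a cofactor of HOXA9 in leukemia, was at 60.1, 65.8, 43.7 and 66.6 CPM in vehicle and at 28.5, 28.4, 30.3 and 27.6 CPM with TP-472 (-1.04, SE 0.14, adjusted p = 0.00105). For MEIS1 vehicle replicate 3 was the lowest vehicle library, and the fall was larger without it (-1.16).

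MEIS3 and PBX2 also fell, but by less once vehicle replicate 3 was left out. MEIS3 was at 37.0, 36.6, 84.2 and 36.7 CPM in vehicle and at 22.6, 23.0, 20.6 and 19.8 CPM with TP-472 (-1.18, adjusted p = 0.0117, and -0.77 without that library). PBX2 was at 33.5, 31.9, 71.1 and 32.4 CPM in vehicle and at 18.2, 16.8, 17.5 and 17.0 CPM with TP-472 (-1.28, adjusted p = 0.00638, and -0.91 without it). PBX4 was called with all libraries (-0.87, adjusted p = 0.0442) and under the fold limit without vehicle replicate 3 (-0.47, adjusted p = 0.00972), and its call held in 2 of the 8 fits with a library left out. It missed the threshold without TP-472 replicate 1, 2, 3 or 4 (adjusted p = 0.0877, 0.0864, 0.0945 and 0.110) and without vehicle replicate 1 (adjusted p = 0.0553).

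PBX3 and PKNOX1 were the cofactors not called. PBX3 was at 15.9 ± 1.18 CPM in vehicle and 16.5 ± 2.66 CPM with TP-472 (0.05, adjusted p = 0.775). PKNOX1 was at 15.7 ± 3.68 and 18.2 ± 1.35 CPM (0.21, adjusted p = 0.346), and without vehicle replicate 3 it was higher in all TP-472 libraries (0.37, adjusted p = 0.0123), under the fold limit. PKNOX2 was under the filter, at 0.228 CPM in vehicle and 0.0810 CPM with TP-472.

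**Figure D5:**
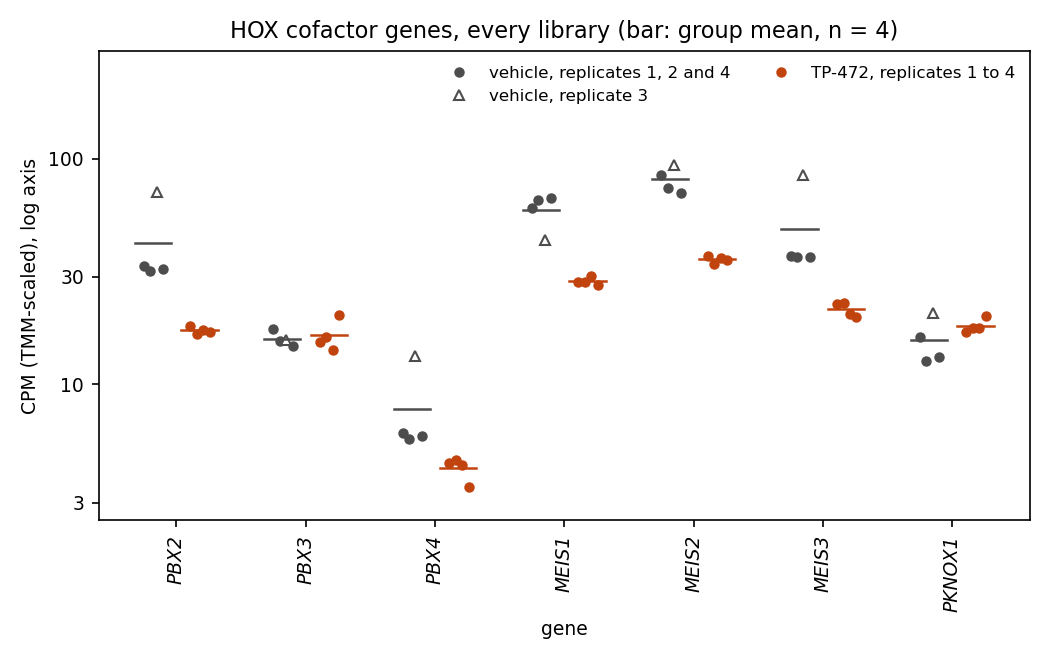
TMM-scaled CPM (vertical log axis) of 7 tested HOX cofactor genes in each of the 8 libraries, with an open triangle for vehicle replicate 3 and bars for group means (n = 4). PBX2, PBX4, MEIS1, MEIS2 and MEIS3 lie lower in all TP-472 libraries, and PBX3 and PKNOX1 overlap between the groups.

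Among the regulators that keep the clusters silent or active, the shares called in both directions together were under the 26.9% of all genes. All 32 Polycomb genes listed were tested, and 5 were called lower and none higher, where 14.9% of all genes were called lower and 12.0% higher. Their median was -0.12, and -0.11 without vehicle replicate 3. RYBP was under the fold limit with all libraries (0.57, adjusted p = 0.0163). It was called higher without TP-472 replicate 2 (0.61), vehicle replicate 1 (0.65) or vehicle replicate 2 (0.61). JARID2 and PCGF2 missed the p threshold with all libraries (adjusted p = 0.0559 and 0.0596) and were called lower without vehicle replicate 2 or 4. CBX7, a subunit that reads the Polycomb mark, fell most (12.7 ± 6.68 to 3.68 ± 0.426 CPM, -1.79, adjusted p = 0.00339, and -1.36 without vehicle replicate 3). PHC1 (-0.88, adjusted p = 0.00467), PHF1 (-0.73, adjusted p = 0.00872) and the methyltransferase gene EZH1 (-0.71, adjusted p = 0.00101) were lower in all 8 fits with a library left out, while PHF1 came under the fold limit with the GC correction (-0.43, adjusted p = 0.0180). ASXL1 (-0.59, adjusted p = 0.0255) was called in 3 of these 8, was under the fold limit without vehicle replicate 3 (-0.43) and missed the threshold without TP-472 replicate 1, 2 or 3 or vehicle replicate 1 (adjusted p = 0.0657, 0.0689, 0.0753 and 0.0647). The most abundant, RBBP4 and RBBP7, were at 340 and 233 CPM in vehicle and at 265 and 241 CPM with TP-472, and neither was called.

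Of 19 genes listed as Trithorax or linked factors, 1 was called higher and 2 lower, against the same 12.0% and 14.9% of all genes. Their median was -0.37, and -0.25 without vehicle replicate 3. The list also holds genes of the elongation machinery, MLLT3 and AFF1 among them, which are not Trithorax genes in the strict sense. MLLT3, which joins the elongation machinery, rose from 0.758 ± 0.223 to 1.68 ± 0.359 CPM (1.14, adjusted p = 0.0108, and 0.97 without vehicle replicate 3). It passed the filter through the TP-472 libraries, since 1 vehicle library exceeded 1 CPM. AFF1, also of the elongation machinery, fell from 90.8 ± 20.7 to 52.1 ± 12.4 CPM (-0.80, adjusted p = 0.0166), a call lost without TP-472 replicate 2 (adjusted p = 0.0551) or 3 (adjusted p = 0.0552). The methyltransferase gene KMT2C was called lower (-0.67, adjusted p = 0.0392) in spite of overlapping groups, and lost the call without TP-472 replicate 1, 2 or 3 or vehicle replicate 1 (adjusted p = 0.0949, 0.108, 0.110 and 0.104). KMT2D, HCFC1 and KDM6B missed the p threshold with all libraries (adjusted p = 0.0695, 0.0938 and 0.054). They were called lower without vehicle replicate 2 or 4. Without vehicle replicate 3 they were at -0.60, -0.39 and -0.79 and missed it too (adjusted p = 0.128, 0.242 and 0.0856). AFF4 and PSIP1, the most abundant at 242 and 215 CPM in vehicle, were not called (adjusted p = 0.856 and 0.479).

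Retinoic acid and CDX proteins are activators of HOX genes in the embryo. Of 20 such genes 12 were tested, 2 were called higher and 6 lower, where 12.0% and 14.9% of all genes were. The median was -0.55, and -0.63 without vehicle replicate 3. The receptor genes RARG (-1.45, adjusted p = 0.00452), RXRB (-0.99, adjusted p = 0.00500) and RARB (-0.84, adjusted p = 0.00197) were lower in all 8 fits with a library left out. RXRA was called lower too (-1.17, adjusted p = 0.0244), by less without vehicle replicate 3 (-0.68), and it missed the threshold without any 1 of the TP-472 replicates (adjusted p = 0.0519, 0.0649, 0.0670 and 0.0658). DHRS3, which turns retinal back to retinol, fell from 101 ± 24.4 to 34.8 ± 3.87 CPM (-1.53, adjusted p = 4.32e-04).

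The carrier CRABP2 rose from 4.15 ± 0.770 to 8.73 ± 1.01 CPM (1.07, adjusted p = 0.00230), and CYP26B1, which degrades retinoic acid, from 0.697 ± 0.285 to 1.79 ± 0.353 CPM (1.36, adjusted p = 0.00775). CYP26B1 passed the filter through the TP-472 libraries, as 1 vehicle library exceeded 1 CPM. The synthesizing enzyme ALDH1A1 was by far the most abundant, at 2680 ± 851 CPM in vehicle and 2060 ± 128 CPM with TP-472, and was not called (-0.38, adjusted p = 0.224). The difference was -0.58 (adjusted p = 0.00155) without vehicle replicate 3 and -0.48 (adjusted p = 0.0302) with the GC correction. Both passed the p threshold but not the fold limit. CDX2 was not called with all libraries (0.58, adjusted p = 0.190), but it was called without vehicle replicate 3 (1.04, adjusted p = 0.00109) and with the GC correction (0.84, adjusted p = 0.0110). Vehicle replicate 3 had 1.79 CPM of CDX2 against 0.637, 0.776 and 0.731 CPM in the other vehicle libraries and 1.32, 1.49, 1.5 and 1.56 CPM with TP-472. CDX2 thus passed the filter through the TP-472 libraries, where it was high, since of the vehicle libraries replicate 3 alone exceeded 1 CPM.

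Of the genes that flank the clusters some were called lower and none higher. Of 20 listed, 17 were tested and 6 were called lower, where 14.9% of all genes were called lower and 12.0% higher. The median was -0.12, and -0.31 without vehicle replicate 3. HIBADH, near HOXA, fell from 35.5 ± 8.29 to 16.0 ± 1.37 CPM (-1.15, adjusted p = 0.00198), CALCOCO1, near HOXC, from 27.0 ± 2.35 to 12.4 ± 0.564 CPM (-1.13, adjusted p = 2.25e-04) and CBX5, also near HOXC, from 538 ± 92.4 to 279 ± 48.1 CPM (-0.95, adjusted p = 0.00289). In the gap between HOXB9 and HOXB13, PRAC1 fell from 15.7 ± 4.02 to 8.74 ± 0.740 CPM (-0.85, adjusted p = 0.0111).

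Its neighbour PRAC2 was called lower (-0.72, adjusted p = 0.0393) but in 2 of the 8 fits with a library left out, with an adjusted p of 0.0779, 0.0877 and 0.0556 without TP-472 replicates 1, 2 and 4 and of 0.0557, 0.0688 and 0.0744 without vehicle replicates 1, 2 and 4. TTLL6, beyond HOXB13, was lower (-0.75, adjusted p = 0.0196), a call lost without TP-472 replicate 1 (adjusted p = 0.0565) or 2 (adjusted p = 0.0632), and it passed the filter through the vehicle libraries, as 1 TP-472 library exceeded 1 CPM. SKAP2, near HOXA, was not called with all libraries (-0.50, adjusted p = 0.0596), but it was called lower without vehicle replicate 3 (-0.63, adjusted p = 0.00206) and with the GC correction (-0.65, adjusted p = 0.00138). HNRNPA1, the most abundant neighbour at 745 CPM in vehicle and 825 CPM with TP-472, was not called.

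Homeobox and related genes outside the clusters, 43 listed and 20 tested (1 of the list, TBX15, is a T-box gene), had 4 called higher and 3 lower, against 12.0% and 14.9% of all genes, with a median of -0.16, and 0.20 without vehicle replicate 3. MSX2, a gene of craniofacial and limb development, rose from 0.499, 0.632, 0.637 and 0.646 CPM in vehicle to 2.48, 2.93, 2.77 and 2.77 CPM with TP-472 (2.18, adjusted p = 8.4e-05). It entered the test through the TP-472 libraries alone, since no vehicle library exceeded 1 CPM. The same was true of ZEB2, and PAX8 entered through the vehicle libraries alone. ZEB2, a repressor of epithelial genes (1.59, adjusted p = 0.00222), also rose in every fit with a library left out. DLX1 was called higher (0.60, adjusted p = 0.00766) and came under the fold limit without TP-472 replicate 2 (0.56) or vehicle replicate 4 (0.55).

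PAX8, a gene of the Mullerian duct, which forms the uterus, was lower (-1.06, adjusted p = 0.0165, lost without TP-472 replicate 3 at an adjusted p of 0.0506), and MEOX1 was lower too (-0.72, adjusted p = 0.0148). ZFHX3 was called lower with overlapping groups (-1.65, adjusted p = 0.0287, and -1.07 without vehicle replicate 3), and the call was lost without TP-472 replicate 1, 2 or 3 or vehicle replicate 1 (adjusted p = 0.0737, 0.0803, 0.0825 and 0.0647). MSX1 and NKX2-5 were called without vehicle replicate 3 (0.68 and 0.86) and with the GC correction (0.86 and 1.04) but not with all libraries (0.56 and 0.48). MSX1 was also called without TP-472 replicate 4 (0.61) or vehicle replicate 4 (0.59). The most abundant genes of the list, ZEB1 and BARX1, were at 132 and 42.4 CPM in vehicle and 121 and 48.5 CPM with TP-472, and neither was called.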

How the data were processed

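RNA of SK-UT-1 cells was sequenced after 48 h of TP-472 (5 µM) or vehicle (n = 4 each). The authors deposited estimated counts per gene, made with Salmon 1.4.0 per the submitters' processing notes, on GRCh38 and GENCODE 34, without scaling or filter. No column of the table was left unused, and no library was a copy of another (mean chi-square between replicates of at least 12.8). The study's methods describe strand-specific total RNA libraries and the labels a TruSeq RNA kit.

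Estimated counts were rounded and scaled by TMM in edgeR 4.0.16 under R 4.3.3. Genes above 1 CPM by total count, before TMM scaling, in 4 or more libraries entered the quasi-likelihood F test. They were 14073 in number, and p-values were adjusted by Benjamini-Hochberg over all of them. The limits on p (0.05) and fold (1.5) are those of the study. HOX genes under the filter with more than 3 counts in a library were compared by an exact two-sided permutation test over the 70 assignments of libraries to groups. The SE of a log2 fold change is its size divided by the square root of F. Coordinates, exon lengths and GC content were joined by gene identifier from GENCODE 29 on GRCh38 (all 39 HOX genes matched, GC for 99.3% of tested genes). Promoters are from RefSeq. The calculations were tested on simulated data.

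The members and all gene lists were chosen with earlier results of these data known. The rule names every HOX gene over the filter and, of the other lists, the called members and the 2 most abundant. A few genes it takes are left out of the text and plots, while list counts, medians and sums hold them. Alternatives were DESeq2 1.42.0, limma-voom (limma 3.58.1), robust estimation, other scalings and filters, the replicate number as a block, unrounded counts, a GC correction, no fold limit and each library left out. The summed neighbours, the fits without a CPM filter with a library left out and the ratios within libraries were added after seeing the data.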

Additional observations from a re-analysis of the deposited data

Results flagged for a closer look

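In 5 of the 42 sets of 4 libraries examined (21 HOX genes in 2 groups), 1 library lay far from the other 3 of its group by Dixon's criterion. All 5 were vehicle replicate 3 and high, with HOXB4 at 18.2 CPM, HOXB6 at 37.9 CPM, HOXB8 at 10.6 CPM, HOXC6 at 10.7 CPM and HOXC13 at 9.76 CPM. No HOX gene was set apart in a TP-472 library. The same library stood out high for 14.2% of all genes tested. Chance sets apart about 1 in 20 groups.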

How the results depend on the processing

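Of 386 values of single HOX genes under alternatives, 349 kept their direction and their side of the threshold, 11 lost the call, 10 gained it and 16, in 6 genes, changed sign. HOXA11 and HOXB9 kept their call in every alternative run, with leave-one-out ranges of 0.95 to 1.37 and 0.77 to 0.95. The number of HOX genes called was 4 of 21 tested (3 higher, 1 lower). It was 9 of 38 with 6 lower in DESeq2, 7 with 3 lower after the GC correction, 2 of 8 tested with 0 lower at a filter of 5 CPM, where HOXA11 and HOXB5 were not tested, and 3 lower of 39 tested with no CPM filter, 2 lower with no fold limit and 0 lower in limma-voom. Of all genes 12.5% were called lower in DESeq2, 15.0% after the GC correction, 13.7% at 5 CPM, 8.13% with no CPM filter and 13.1% in limma-voom. With a library left out it ran from 2 to 6 in all, from 2 to 4 higher and from 0 to 2 lower. With the replicate block 3 were called, 0 of them lower, since HOXB5 missed the threshold (-1.13, adjusted p = 0.0950), as did HOXA10 (adjusted p = 0.0738) and HOXB13 (adjusted p = 0.0635) at any fold, and over all genes 3055 were called against 3789. The deviations of libraries with the same number from their group means correlated at r = -0.06, 0.12, -0.17 and -0.18. Pairs with different numbers ranged from -0.30 to 0.40. Whether libraries with the same number share a culture or batch cannot be told from these values. The sign changed for HOXA7 in limma-voom (0.0458), the replicate block (0.0384) and the GC correction (0.11), for HOXB4 with total-count scaling (-0.0016), for HOXC9 in the GC correction (0.0699) and for HOXC13 in limma-voom (0.0181), the replicate block (0.016) and the GC correction (0.25). Leave-one-out ranges that cross 0 were -0.21 to 0.33 for HOXA7, -0.0372 to 0.24 for HOXB4, -0.54 to 0.20 for HOXB6, -0.49 to 0.11 for HOXB8, -0.26 to 0.10 for HOXC9 and -0.14 to 0.24 for HOXC13. The cause was not tested. For 4 of the 21 genes the level per kilobase moved with the transcript length used. Counts under about 50 per library limit what can be said of HOXD and of most genes under the filter.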
